A study of Homo sapiens with 6 samples.

Results

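The globin genes encode the protein chains of hemoglobin, the oxygen carrier of red blood cells. This account covers the 10 alpha-like and beta-like globin genes, which are 10 of the 60671 gene rows in the count files and were found by matching Ensembl identifiers to GENCODE symbols. Every member had its own row, 5 in the alpha-like cluster on chromosome 16 (*HBZ*, *HBM*, *HBA2*, *HBA1* and *HBQ1*) and 5 in the beta-like cluster on chromosome 11 (*HBE1*, *HBG2*, *HBG1*, *HBD* and *HBB*). RNA was taken from K562, an established human chronic myeloid leukemia line with erythroid features, here as 1 clone carrying a Flag-tagged Lamin B1 joined to M.CviPI, an enzyme that methylates GpC sites. The study compared 3 separate cultures given GSK343 at 1 µM, which blocks EZH2, the catalytic subunit of Polycomb repressive complex 2, with 3 given the vehicle DMSO at 0.1%. Treatment lasted 72 h, and all 6 cultures received 1 µg/mL doxycycline, which turns on the fusion, in the last 24 h. Libraries sampled the 3′ ends of polyadenylated transcripts, and 6327544 to 8987768 reads per library were counted on genes. EZH2i replicate 3 stood apart, with 63.6% of its listed reads on genes and 12.7% on no annotated feature, against 66.98% to 67.9% and 7.43% to 8.51% in the other libraries. The GSK343 libraries are called EZH2i below.

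Hemoglobin carries alpha-like and beta-like chains, and the genes of each cluster lie in the order in which development uses them. In the embryo zeta (*HBZ*) pairs with epsilon (*HBE1*), in the fetus alpha (*HBA1*, *HBA2*) pairs with gamma (*HBG1*, *HBG2*), and after birth alpha pairs with beta (*HBB*) and a little delta (*HBD*). Mu (*HBM*) and theta (*HBQ1*) are transcribed in erythroid cells but are not known to form hemoglobin. K562 cells are known for embryonic and fetal globin expression, and Polycomb repressive complex 2 places the H3K27me3 mark that keeps many developmental genes silent.

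Of the 10 genes, *HBZ* rose most after EZH2 inhibition, to 2.22 times its DMSO level, and the fetal gene *HBG2* rose to 1.49 times, a call that did not hold when any 1 DMSO replicate was left out. The alpha genes *HBA1* and *HBA2* had smaller positive differences that did not pass the test, and *HBQ1* and *HBD* were within 0.08 of 0 on the log2 scale. *HBB*, *HBE1* and *HBM* gave at most 6 reads in any library and were not tested. No globin gene was called lower. In RNA from whole cultures, more cells with a transcript and more of it per cell cannot be told apart.

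The markers of the line fitted its label in part. Of 10 erythroid markers, 8 were expressed well enough to be tested and their summed level was 1489 to 1515 CPM in DMSO and 1430 to 1506 CPM in EZH2i (CPM, the count of a gene scaled to a common library size after TMM scaling). The summed levels of 8 megakaryocyte and 6 lymphoid markers stayed between 2.01 and 6.14 CPM, with *GP9*, *PF4*, *PPBP*, *VWF* and *MS4A1* at 0 reads in every library. The 6 myeloid markers summed to 12.2 to 17.9 CPM in DMSO and 21.8 to 24.4 CPM in EZH2i. Most of that difference came from *LYZ*, the lysozyme gene (log2 fold change 0.62, adjusted p = 0.0426 from edgeR and 0.0882 from DESeq2), a call that was lost with any 1 library left out (adjusted p from 0.053 to 0.16, edgeR), while *ELANE* and *CSF1R* were at 0 and *MPO* had at most 1 read. *ITGAM* had 9 to 11 reads per library (log2 fold change 0.22, adjusted p = 0.825, edgeR), and *CD14* had 0, 0 and 1 reads in DMSO and 2, 1 and 2 in EZH2i. Whether this has any part in the globin differences was not tested.

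What a 3′ read can tell differs between the globin genes, and it bears on every level given here. A read that matches more than 1 place in the genome, or exons of more than 1 gene, is listed in the files apart from the genes. The last 300 bases of each main transcript were therefore cut into all windows of 50 bases, the read length, that lie within an exon. Each window was searched for exact copies in GRCh38 and for exons of other counted genes on the same strand.

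*HBB*, *HBD*, *HBM* and *HBQ1* were free of both limits, with 100% of their windows found once in the genome and clear of other genes. Of the windows of *HBA2*, 52.5% had an exact copy in *HBA1*, its near-identical neighbour, and 47.5% were usable. *HBA1* was alike at 48.0%. *HBZ* had 54.5% usable windows. Of its 202 windows 49 had a copy in the pseudogene *HBZP1*, 19 in an exon of *HBM* and 43 outside annotated exons, where 1 window can count under more than 1 of these. An exon of *HBM* on the same strand covered 22.7% of its last 300 bases. For *HBG2*, 52.0% were usable.

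The ends of *HBG1* and *HBE1* had no usable window. An exon of ENSG00000284931, an annotated readthrough from *HBG2* into *HBG1*, covered 72.7% of the last 300 bases of *HBG1*, and the row of that gene held 0 reads in all 6 libraries. An exon of ENSG00000239920 covered 91.7% of the last 300 bases of *HBE1*. By the default rule of HTSeq, reads there would go to the class that overlaps more than 1 gene, which held 226308 to 314968 reads per library, from 38.5 to 74.7 times the reads of all 10 globin genes together. The rows of *HBG1* and *HBE1* still held 35 to 111 and 1 to 6 reads per library, and how far these counts differ from the level of the transcripts was not tested. These positions come from a later annotation than the authors' own, and the strand setting and overlap mode of the counting are not given in the sources used here.

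**Figure D1:**
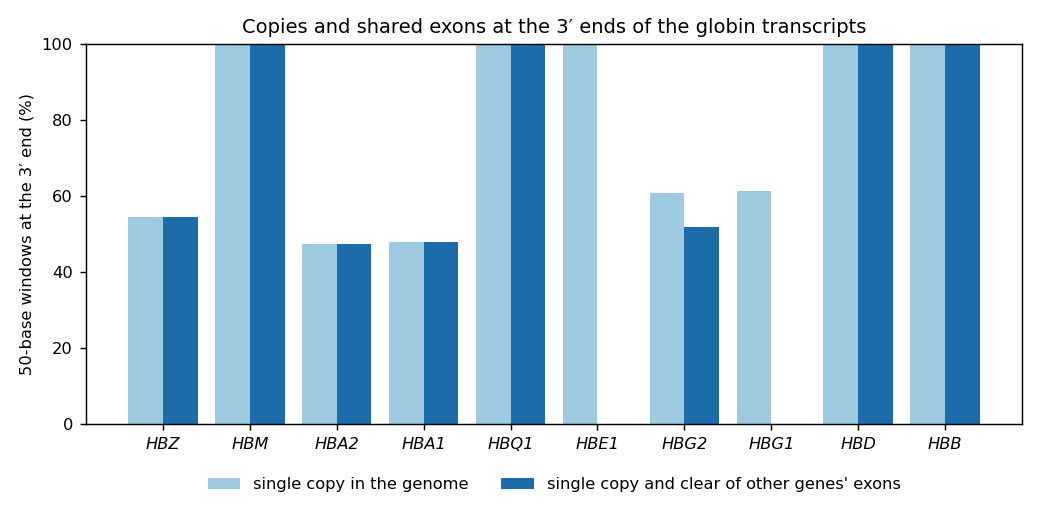
Copies and shared exons at the 3′ ends of the 10 globin transcripts. Bars give the percentage of 50-base windows in the last 300 bases that occur once in the genome (light) and that also lie clear of exons of other counted genes on the same strand (dark); *HBE1* and *HBG1* have no dark bar, and *HBM*, *HBQ1*, *HBD* and *HBB* reach 100%.

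RefSeq promoter windows were at hand for 2 members, 1 from each cluster, and both have 3′ ends free of copies and shared exons. They are shown because *HBD* gave reads in every library while *HBM* gave almost none. Each runs from 250 bases before to 50 bases after the start on GRCh38.p14, and capitals mark matches on either strand to the GATA motifs AGATAA and TGATAA and AGATAG and TGATAG, the CACCC box, the CCAAT box and the TATA letters TATAAA or ATAAAA.
HBD promoter, chr11:5234434-5234733, minus strand: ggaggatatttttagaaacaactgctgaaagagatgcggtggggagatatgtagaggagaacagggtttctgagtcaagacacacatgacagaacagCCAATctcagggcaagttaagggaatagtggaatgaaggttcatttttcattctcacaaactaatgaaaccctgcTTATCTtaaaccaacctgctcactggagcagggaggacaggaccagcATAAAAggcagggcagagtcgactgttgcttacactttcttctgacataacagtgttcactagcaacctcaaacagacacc
HBM promoter, chr16:165728-166027, plus strand: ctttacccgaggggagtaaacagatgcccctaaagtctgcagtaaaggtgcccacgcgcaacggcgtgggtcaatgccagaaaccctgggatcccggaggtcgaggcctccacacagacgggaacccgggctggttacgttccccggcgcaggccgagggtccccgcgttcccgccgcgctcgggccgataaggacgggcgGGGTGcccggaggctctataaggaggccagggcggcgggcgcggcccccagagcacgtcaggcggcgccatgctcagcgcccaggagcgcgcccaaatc
The delta promoter held CCAAT from 153 bases before the start, AGATAA on the minus strand from 78 bases before it and ATAAAA from 31 bases before it, motifs found in 34.6%, 10.3% and 16% of 35114 promoters. The mu promoter held CACCC on the minus strand, as 59.9% of promoters do. Only the exact letters listed were searched, so near matches such as gataag and tataag in the mu promoter are not marked. The marked matches are letters only.

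The alpha-like genes are described in their order along the chromosome. *HBZ* (ENSG00000130656; main transcript chr16:152644-154503, plus strand) encodes the embryonic zeta chain. Its level was 77.7, 69.5 and 66.9 CPM in DMSO replicates 1 to 3 and 183, 129 and 163 CPM in EZH2i replicates 1 to 3, from 498 to 1356 reads. The lowest EZH2i library lay well above the highest DMSO library. The means were 71.3 ± 5.63 CPM in DMSO and 158 ± 27.3 CPM in EZH2i (n = 3, SD), and the log2 fold change was 1.15 (95% interval 0.89 to 1.42, adjusted p = 6.14e-05, edgeR). By p-value *HBZ* was number 11 of the 12364 genes tested, and by fold change number 228. The call held in all 6 fits that each left out a library, with log2 fold changes from 1.04 to 1.28. Without EZH2i replicate 3, the library that stood apart, it was 1.13 (adjusted p = 0.000129, edgeR).

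*HBA2* and *HBA1* encode the same alpha chain, used in the fetus and after birth. *HBA2* (ENSG00000188536; chr16:172876-173710, plus strand) was at 252, 189 and 312 CPM in DMSO and 346, 300.2 and 298 CPM in EZH2i. The DMSO libraries spread widely, and replicate 3 lay inside the EZH2i range. The log2 fold change was 0.33 (95% interval 0.03 to 0.62), with an adjusted p of 0.214 from edgeR. It was 0.16 without DMSO replicate 2 (adjusted p = 0.598, edgeR) and 0.51 without DMSO replicate 3 (adjusted p = 0.0728, edgeR). *HBA1* (ENSG00000206172; chr16:176680-177522, plus strand) was at 113, 96.5 and 115 CPM in DMSO and 183, 130.1 and 127 CPM in EZH2i. Here the groups did not overlap, with EZH2i replicate 1 far above the other libraries. The log2 fold change was 0.44 (95% interval 0.16 to 0.73) and the adjusted p was 0.0713 from edgeR, so the gene was not called. Without EZH2i replicate 3 the adjusted p of *HBA1* was 0.0407 (edgeR), and without EZH2i replicate 1 its log2 fold change was 0.25 (adjusted p = 0.173, edgeR). With the reads of both alpha genes summed to 1 row of the table, the log2 fold change was 0.36 (adjusted p = 0.137, edgeR).

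*HBQ1* (ENSG00000086506; chr16:180459-181179, plus strand), at the far end of the cluster, encodes theta. Its level was 42.9, 38.1 and 40.8 CPM in DMSO and 44.2, 44.6 and 36.4 CPM in EZH2i, so the groups overlapped. The log2 fold change was 0.04 (95% interval -0.22 to 0.30, adjusted p = 0.894, edgeR), an interval whose upper end lies below the lower end of that of *HBZ*. *HBM* (ENSG00000206177; chr16:165978-166764, plus strand) had 0, 0 and 4 reads in DMSO and 0, 3 and 3 in EZH2i, against a limit of 3 reads for a count of 0. No difference was detectable at this depth.

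**Figure D2:**
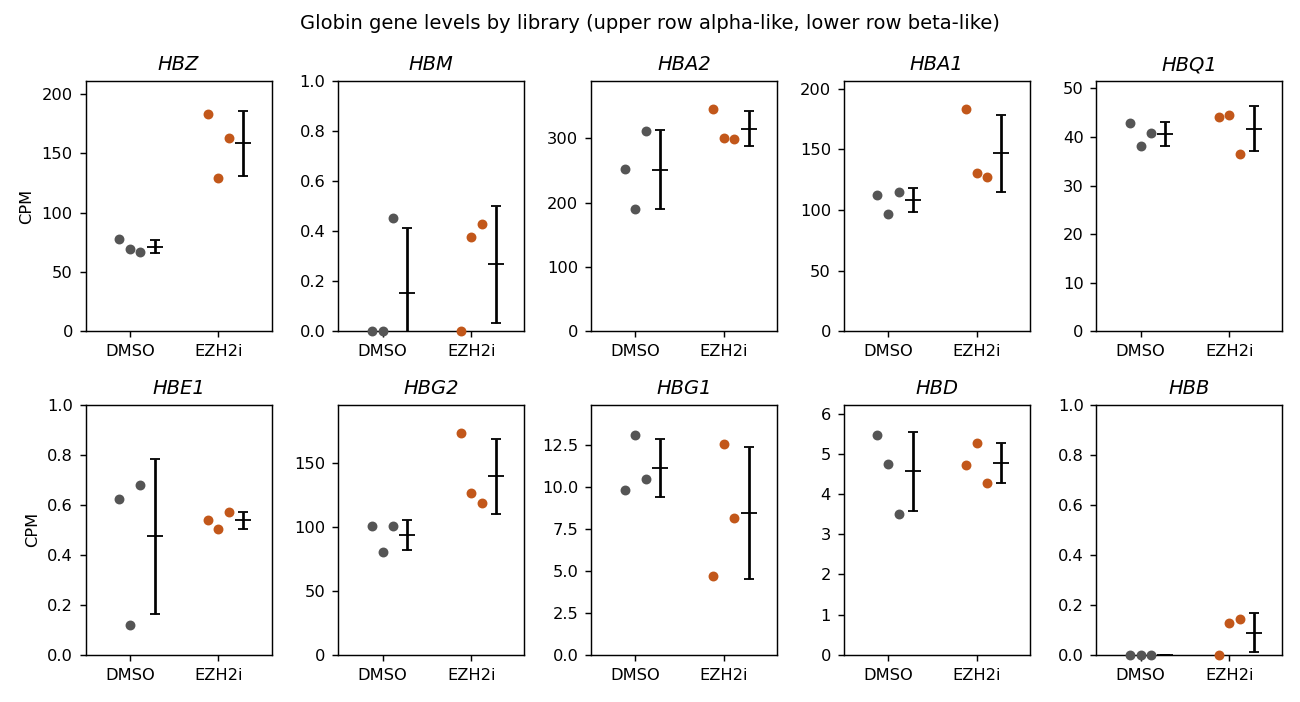
Level of each globin gene by library, in CPM on a linear axis from 0 that differs between panels. Each point is 1 of 3 libraries per group, and the bar beside the points is the mean with its SD; for *HBZ*, *HBA1* and *HBG2* all EZH2i points lie above all DMSO points.

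Among the beta-like genes only the gamma pair gave more than 42 reads in a library. *HBG2* (ENSG00000196565; main transcript chr11:5253188-5254781, minus strand) was at 101, 80.6 and 101 CPM in DMSO and 173, 127 and 119 CPM in EZH2i. Every EZH2i library was above every DMSO library, and EZH2i replicate 1 was the highest by a wide margin. The means were 94.0 ± 11.6 CPM in DMSO and 139.9 ± 29.3 CPM in EZH2i (n = 3, SD), and the log2 fold change was 0.58 (95% interval 0.29 to 0.86, adjusted p = 0.0251, edgeR). This call did not hold without DMSO replicate 1, 2 or 3, with adjusted p of 0.0724, 0.138 and 0.0624 (edgeR), while the log2 fold changes were 0.62, 0.48 and 0.63. Without EZH2i replicate 3 it was 0.68 (adjusted p = 0.0119, edgeR).

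*HBG1* (ENSG00000213934; chr11:5248269-5249857, minus strand), whose protein differs from that of *HBG2* at a single residue, was at 9.82, 13.1 and 10.5 CPM in DMSO and 4.73, 12.6 and 8.14 CPM in EZH2i. The groups overlapped, and the difference (log2 fold change -0.39, 95% interval -0.95 to 0.17, adjusted p = 0.444, edgeR) did not pass the test. It was -0.10 without EZH2i replicate 1, -0.26 without DMSO replicate 2 and -0.81 without EZH2i replicate 2 (adjusted p = 0.0969 for the last, edgeR). With the reads of both gamma genes summed to 1 row, the log2 fold change was 0.50 (adjusted p = 0.0332, edgeR). The summed gamma level was 105 ± 9.86 CPM in DMSO and 148 ± 26.5 CPM in EZH2i (SD, n = 3 each).

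*HBD* (ENSG00000223609; chr11:5232838-5234483, minus strand), the minor adult gene, was at 5.46, 4.74 and 3.51 CPM in DMSO and 4.73, 5.28 and 4.28 CPM in EZH2i, from 30 to 42 reads. The log2 fold change was 0.08 with a 95% interval from -0.48 to 0.64 (adjusted p = 0.911, edgeR), too wide to tell a rise like that of *HBG2* from none. *HBB* (ENSG00000244734; chr11:5225464-5227071, minus strand), the adult beta gene, had 0 reads in DMSO replicates 1, 2 and 3 and 0, 1 and 1 reads in EZH2i. A count of 0 in DMSO allows up to 0.339 to 0.468 CPM, depending on the library. *HBE1* (ENSG00000213931; chr11:5268345-5269945, minus strand), the embryonic gene, had 4, 1 and 6 reads in DMSO and 4, 4 and 4 in EZH2i, and its 3′ end is the shared one described above.

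In all, 7 of the 10 genes passed the filter on low counts, and 2 of these 7 were called, both higher, where 4.26% of the 12364 tested genes were called and 3.34% were called higher. None of the 7 was called lower, as 0.922% of the tested genes were. The count of globin calls was 1, 2 or 3 under other settings, and *HBZ* was the only gene called in each of them. *HBG2* alone, or within the gamma pair, was called in those that kept all DMSO replicates. Without DMSO replicate 1, 2 or 3, *HBZ* was the 1 globin gene called, where 1.67%, 1.65% and 1.89% of all genes were called. Without EZH2i replicate 1 or 2, the globin calls numbered 2 and 2 (4.2% and 3.16% of genes), and without EZH2i replicate 3 they numbered 3 (3.38%). They numbered 3 with the replicate number as a block (4.84%) and without the filter (3.54%), 2 with DESeq2 (3.02%), and 2 with the reads of each pair of paralogs summed (4.3%), *HBZ* and the gamma pair. The groups did not overlap for 3 of the 7 (*HBZ*, *HBA1* and *HBG2*), each with EZH2i above DMSO, as for 13.3% of all tested genes. The median log2 fold change over the 7 was 0.33, and over all tested genes it was -0.0002.

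**Figure D3:**
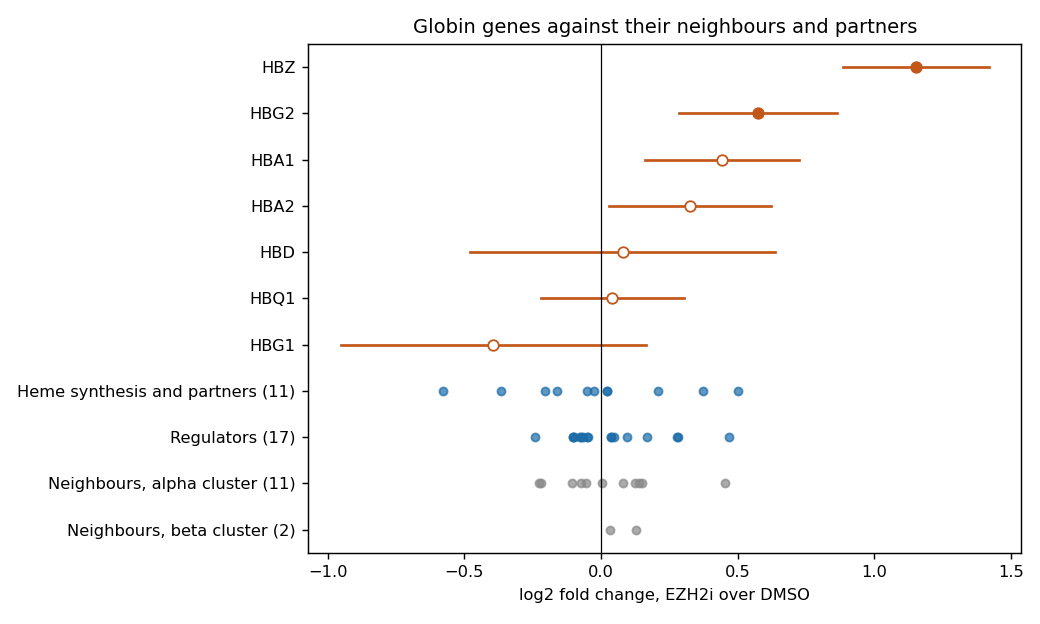
Log2 fold changes, EZH2i over DMSO, of the 7 tested globin genes with 95% intervals (filled points passed the test at an adjusted p under 0.05) and, as single points without intervals, of tested genes among globin partners, globin regulators and the neighbours of each cluster. *HBZ* at 1.15 lies to the right of every other point.

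Levels of different genes were compared per length, as CPM per kb of the main transcript, although in 3′ libraries reads do not grow in number with transcript length. Nor does this measure correct for the usable windows at the 3′ ends. These were 0% for *HBG1* and *HBE1*, 47.5% for *HBA2*, 48.0% for *HBA1*, 52.0% for *HBG2* and 54.5% for *HBZ*. They were 100% for *HBQ1*, *HBD*, *HBM* and *HBB*, so the order is one of counted reads only. In DMSO *HBA2* was highest at 436 ± 106 CPM per kb, followed by *HBA1* at 187 ± 17.3 and *HBG2* at 160.4 ± 19.7 (SD, n = 3 each). The ranges of the last pair overlapped. Then came *HBZ* at 89.4 ± 7.05, *HBQ1* at 76.9 ± 4.53, *HBG1* at 19.0 ± 2.98 and *HBD* at 7.37 ± 1.59 CPM per kb (SD, n = 3 each), each with a range apart from the next. *HBE1*, *HBM* and *HBB* closed the order at under 1 CPM per kb on average, without separation between *HBE1* and *HBM* or between *HBM* and *HBB*. The order of the means was the same in EZH2i, where *HBZ* had reached 199 ± 34.2 CPM per kb beside 239 ± 49.9 for *HBG2* and 254 ± 54.8 for *HBA1*, with ranges that overlapped from each to the next (SD, n = 3 each). Without the division by length the EZH2i means of these genes stood in another order, at 158 CPM for *HBZ*, 147 for *HBA1* and 139.9 for *HBG2*, so their order in EZH2i is not settled.

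As shares of the reads of the alpha-like cluster, *HBZ* held 16.0%, 17.7% and 12.5% in DMSO and 24.2%, 21.4% and 26.1% in EZH2i. All EZH2i shares lay above all DMSO shares, with means of 15.4% ± 2.63 and 23.9% ± 2.38 (SD, n = 3 each). The two-sided exact permutation p was 0.1, below which 3 libraries against 3 cannot go. *HBQ1* lay apart in the other direction, with shares from 7.64% to 9.69% in DMSO and from 5.83% to 7.38% in EZH2i (n = 3 each; exact permutation p = 0.1). Shares of a cluster add up to a fixed total, and the level of *HBQ1* itself was 40.6 ± 2.39 CPM in DMSO and 41.7 ± 4.61 CPM in EZH2i (n = 3, SD). *HBA2* held 52.8% ± 5.13 and 47.7% ± 1.97, and *HBA1* held 23.1% ± 1.53 and 22.0% ± 2.01 (SD, n = 3 each; exact permutation p = 0.2 and 0.5), and neither pair of groups was separate. *HBM* held at most 0.0847%.

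Ratios within a library do not depend on its scaling. *HBZ* had 0.213, 0.243 and 0.157 reads per read of the summed alpha genes in DMSO and 0.346, 0.300 and 0.384 in EZH2i, without overlap (n = 3 each; exact permutation p = 0.1). Against *HBG2*, *HBZ* went from 0.766 ± 0.0987 to 1.15 ± 0.193 reads per read, again without overlap (SD, n = 3 each; exact permutation p = 0.1). The ratio of *HBA1* to *HBG2*, which lie on different chromosomes, moved little, from 1.15 ± 0.0407 to 1.05 ± 0.0211, although its groups did not overlap either (SD, n = 3 each; exact permutation p = 0.1). That of *HBA2* to *HBA1* was 2.31 ± 0.381 and 2.18 ± 0.256, with overlap (SD, n = 3 each; exact permutation p = 0.7). *HBQ1* had 0.377 ± 0.0198 reads per read of *HBA1* in DMSO and 0.290 ± 0.051 in EZH2i, without overlap (SD, n = 3 each; exact permutation p = 0.1). *HBG2* had 10.3, 6.14 and 9.56 reads per read of *HBG1* in DMSO and 36.7, 10.1 and 14.6 in EZH2i, with overlap and with EZH2i replicate 1 far above the rest (n = 3 each; exact permutation p = 0.2). Adjusted over the 6 ratios tested, the smallest permutation p was 0.15.

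Within the beta-like cluster *HBG2* held 86.4%, 81.8% and 87.2% of the reads in DMSO and 94.6%, 87.3% and 90.1% in EZH2i. The groups met closely, at 87.2% and 87.3%, without overlap (n = 3 each; exact permutation p = 0.1). *HBG1* held 10.3% ± 2.65 and 5.79% ± 3.05 and *HBD* held 4.17% ± 0.982 and 3.15% ± 0.53, with overlapping groups in both (SD, n = 3 each; exact permutation p = 0.2 and 0.3). *HBE1* stayed at or under 0.589% and *HBB* at or under 0.108%. Whether the shared 3′ ends of *HBG1* and *HBE1* changed these shares was not tested. Adjusted over the 10 shares tested, the smallest permutation p was 0.333.

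Over both clusters, the embryonic genes held 12.5% ± 1.92 of the globin reads in DMSO and 19.5% ± 2.16 in EZH2i, nearly all from *HBZ* (SD, n = 3 each). The fetal share (*HBG1*, *HBG2*) was 18.2% ± 0.991 and 18.1% ± 1.15 (SD, n = 3 each). The genes counted as adult (*HBA1*, *HBA2*, *HBB*, *HBD*) held 62.2% ± 3.60 and 57.2% ± 0.777, nearly all of it alpha reads (SD, n = 3 each). Alpha also pairs with gamma in the fetus, so this share does not separate adult from fetal use. Within it, *HBD* and *HBB* had mean shares of 0.803% and 0% in DMSO and 0.591% and 0.0119% in EZH2i. *HBM* and *HBQ1* held the rest, 7.08% ± 0.697 in DMSO and 5.19% ± 0.708 in EZH2i, without overlap (SD, n = 3 each). The 4 shares, embryonic, fetal, adult and the rest, add up to a fixed total. The summed level of *HBA1* and *HBA2* was itself not lower, at 359 ± 70.4 CPM in DMSO and 461 ± 58.4 CPM in EZH2i (n = 3, SD), with overlap. The alpha-like reads outnumbered the beta-like reads by 4.26 ± 0.335 to 1 in DMSO and 4.33 ± 0.338 to 1 in EZH2i (SD, n = 3 each), a difference within the spread of the libraries.

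**Figure D4:**
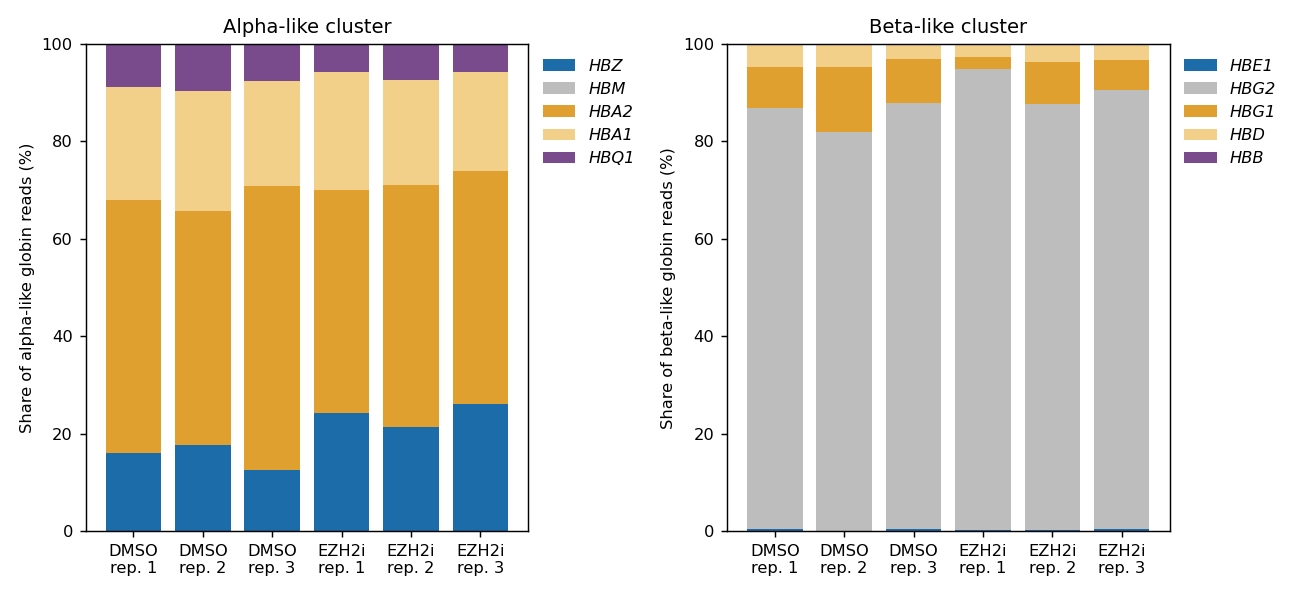
Share of each gene in the reads of its cluster, in percent, stacked for each of the 6 libraries. The *HBZ* block at the foot of the alpha-like bars spans 12.5% to 17.7% in DMSO and 21.4% to 26.1% in EZH2i, and *HBG2* fills 81.8% or more of every beta-like bar.

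The genes around the clusters were taken by position, as those reaching within 200 kb of the span from the first to the last globin transcript. On chromosome 16 there were 28 such genes and 11 were tested, among them *NPRL3*, whose introns hold the known alpha-globin enhancers. *NPRL3* was at 44.5 ± 2.01 CPM in DMSO and 47.2 ± 4.91 CPM in EZH2i (n = 3, SD), with a log2 fold change of 0.08 and an adjusted p of 0.762 from edgeR. None of the 11 was called by edgeR, DESeq2 or limma-voom (4.26% of all tested genes were called by edgeR and 3.02% by DESeq2), 0 had an unadjusted p under 0.05, and the log2 fold changes ran from -0.23 to 0.45 with a median of 0.004. On chromosome 11 the flanks hold olfactory receptor genes, and of 37 genes 2 were tested, *OR51B4* and *OR51B5* at log2 fold changes of 0.03 and 0.13, with 0 called by any of these tools and 0 at an unadjusted p under 0.05. With shares of 4.26% and 3.02% over all genes, counts of 0 among 11 and 2 genes do not set the neighbours apart. Unadjusted p-values under 0.05 were more common: an unadjusted p of 0.0335 (*HBA2*, edgeR) was number 1937 of the 12364 tested genes. Counts of 0 by that limit among so few genes do not set them apart either. Inside the spans, the pseudogene *HBBP1* gave 3 to 19 reads per library, the noncoding RNA *BGLT3* 0 to 5, *HBZP1* 0 or 1, *HBAP1* 0, and the readthrough gene ENSG00000239920 7 to 17.

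Hemoglobin also needs heme and a chaperone for free alpha chains. Of 12 genes for these partners 11 were tested and 1 was called, where 4.26% of all tested genes were, which does not set the list apart. The called gene was *ALAS2*, the erythroid form of the enzyme that starts heme synthesis. It was at 70.0 ± 2.44 CPM in DMSO and 99.0 ± 16.8 CPM in EZH2i (SD, n = 3 each), with log2 fold change 0.50 and adjusted p = 0.0269 from edgeR. The groups did not overlap, but the call did not hold without DMSO replicate 1, 2 or 3 (adjusted p = 0.0882, 0.12 and 0.0868, edgeR). With each of the 6 libraries left out in turn its log2 fold change ran from 0.36 to 0.60. The median log2 fold change of the 11 was -0.02. The lowest was that of *SLC25A38*, at -0.58 (adjusted p = 0.116, edgeR). This gene was at 32.5 ± 3.76 CPM in DMSO and 21.7 ± 7.72 CPM in EZH2i (SD, n = 3 each). *AHSP*, the alpha chain chaperone, had 0 to 7 reads per library and was not tested.

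Of 18 regulators of globin genes 17 were tested, and edgeR, DESeq2 and limma-voom called 0, with 2 at an unadjusted p under 0.05 (edgeR). Beside the 4.26% of all tested genes called by edgeR, 0 of 17 is near the background. Since an unadjusted p of 0.0335 (*HBA2*, edgeR) was number 1937 of the 12364 tested genes, 2 of 17 by the unadjusted limit does not stand out. Their median log2 fold change was -0.05. *GATA1*, the master erythroid factor, was at 79.6 ± 5.13 CPM in DMSO and 96.5 ± 9.05 CPM in EZH2i (n = 3, SD), with a log2 fold change of 0.28 and an adjusted p of 0.164 from edgeR. *KLF1* (log2 fold change -0.07, adjusted p = 0.757, edgeR) activates adult beta globin, and *ZBTB7A* (-0.07, adjusted p = 0.799, edgeR) represses the gamma genes. *BCL11A*, the other main gamma repressor, had 2 reads in DMSO replicate 2 and 0 in the other libraries. *EZH2* itself was at 334 ± 22.9 CPM in DMSO and 292 ± 20.6 CPM in EZH2i (SD, n = 3 each; adjusted p = 0.307, edgeR), and since GSK343 acts on the enzyme, this level does not check the treatment.

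The more distant relatives of the family gave next to no reads. Myoglobin (*MB*) had 0 or 1 read per DMSO library and 2 or 3 per EZH2i library, cytoglobin (*CYGB*) 0 to 3 reads and neuroglobin (*NGB*) 0, at or under the limit of 3 reads, so no fold is given.

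The genes most like *HBZ* across the 6 libraries, by Pearson's r of the log2 CPM values, were *PACS2* (r = 0.995), *CYFIP1* (0.993), *PJA1* (0.993), *IL23R* (0.992) and *AAK1* (0.991). All 5 were themselves called higher in EZH2i (log2 fold changes from 0.51 to 1.31, adjusted p from 0.00319 to 0.0213, edgeR). Their r with *HBZ* thus includes the difference between the groups. As 492 of 12357 genes had an r over 0.9 with *HBZ*, this likeness is a description only. For the summed CPM of all 10 globin genes they were *RPRD1A* (r = 0.998), *SNORA11F* (0.997), *GADD45A* (0.994), *ADAM15* (0.994) and *DFFA* (0.992), among 337 genes with an r over 0.9.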

How the data were processed

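RNA from 3 DMSO and 3 EZH2i samples was profiled with a 3′ mRNA library kit (QuantSeq). Per the labels, the authors aligned reads with STAR 2.6.0c, counted them per gene with HTSeq 0.11.2 and used GRCh38. The study's methods name an Ensembl annotation older than the one used here, and the strand setting and overlap mode of the counting are not given in the sources used here. The deposited values are raw counts of reads per gene, and identifiers were matched to GENCODE 44 (60401 of 60671). Reads on no feature (7.43% to 12.7% of all listed), not uniquely aligned (21.4% to 22.3%) or overlapping more than 1 gene (2.25% to 2.48%) were left out of library sizes.

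Genes were kept with filterByExpr (minimum count 10) and tested with the quasi-likelihood test of edgeR 4.0.16 (R 4.3.3) after TMM scaling, and a gene was called at an adjusted p (Benjamini-Hochberg) under 0.05. The study's methods name DESeq2, which was run as an alternative (DESeq2 1.42.0), beside limma-voom (limma 3.58.1). The steps were tested on simulated data. Intervals of fold changes are at 95%, and limits on a count of 0 (3 reads) cover counting error only. Per the study's methods, the samples of a group were separate cultures of the 1 clone, so p-values measure the spread between cultures. Shares and ratios were taken within a library and compared by an exact permutation test over samples, two-sided. The rule for named genes took all 10 globin genes, called neighbours and those inside a cluster, *AHSP*, *ALAS2*, *GATA1*, *KLF1*, *BCL11A*, *ZBTB7A*, called partners and regulators, the distant globins, *EZH2*, and the 5 genes most like *HBZ* and the 5 most like the summed globins by Pearson's r of log2(CPM + 0.5). *NPRL3*, *OR51B4*, *OR51B5*, *SLC25A38* and the markers were named after their values were seen. The members and lists were chosen with earlier results of these data known.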

Additional observations from a re-analysis of the deposited data

How the results depend on the processing

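*HBZ* was called in every fit. The count of called globin genes was 2 and ran from 1 to 3 with single libraries left out. With any 1 DMSO replicate left out it was 1 (*HBZ*), and leaving these out also lowered the calls over all genes from 527 to 213, 209 and 240. *HBA1* was called without a filter (adjusted p = 0.0161, edgeR), with the replicate block (0.0437) and without EZH2i replicate 3 (0.0407). The calls among partners and regulators ranged from 0, without any 1 DMSO replicate, to 2, without EZH2i replicate 2. The cause was not tested. Samples with the same number did not deviate together over all tested genes (correlations -0.0668, -0.0202 and -0.0278). A link limited to few genes would not show in these values. With the number as a replicate block, 599 genes, 3 globin genes (*HBA1*, *HBG2* and *HBZ*) and 2 partners and regulators (*ALAS2* and *SLC25A38*) were called. In that fit *ALAS2* was higher (log2 fold change 0.49) and *SLC25A38* was lower (-0.62, adjusted p = 0.0311, edgeR).

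With single libraries left out, the log2 fold change of *HBQ1* ran from -0.0103 to 0.13 (negative at -0.0009 for DMSO replicate 2 and at its lowest for EZH2i replicate 2). That of *HBD* ran from -0.0870 (DMSO replicate 3) to 0.21 and was -0.0046 when EZH2i replicate 2 was left out. The difference in the share of *HBE1* ran from -0.205 to 0.0298 points (DMSO replicate 3) and was 0.00273 points when DMSO replicate 1 was left out. With the gamma genes summed, the value printed for *HBG1* becomes that of the pair, 0.50 in log2 fold change and 1.02 points in share. Without a filter 928 genes were called. The low counts of *HBB*, *HBE1* and *HBM* limit what could be detected.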
